A study of Mus musculus with 12 samples.

Results

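The genes described here are 10 genes of epithelial cell contacts and of the epithelial cell surface: Cdh1, Jup, Cldn4, Cldn6, Cldn7, Epcam, Spint1, St14, Esrp1 and Rab25. They were chosen by name, and all 10 were found among the 23496 genes of the deposited table, where the levels of a gene's RefSeq entries were summed. RNA-seq was run on mouse embryonic stem cells (ESCs), pluripotent cells kept in culture, in 3 groups of 4 libraries. The first group, called KO 2i here, was knocked out for Tfcp2l1, which encodes a CP2-type transcription factor, and was grown in 2i medium. WT 2i cells were wild type in that same medium, a serum-free one with N2 and B27 supplements, CHIR99021, which blocks GSK3, at 3 µM, PD0325901, which blocks MEK, at 1 µM, and LIF at 1000 units/mL. WT FBS cells were wild type in a serum medium, made with 15% FBS and with 1000 units/mL of LIF but without these inhibitors. The ESC line, the way the knockout was made and the number of knockout clones were not given in the sources used here.

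ESCs form compact colonies and share with epithelia a set of cell contact proteins. E-cadherin, the product of Cdh1, joins neighbouring cells at adherens junctions, where catenins, among them plakoglobin (Jup), link it to the cytoskeleton. Claudins form the strands of tight junctions, and Epcam is an adhesion molecule of epithelia and ESCs that binds claudin-7. St14 encodes matriptase, a serine protease anchored in the membrane of epithelial cells, and Spint1 encodes HAI-1, the Kunitz-type inhibitor that holds matriptase in check; matriptase can cleave Epcam. Esrp1 is a splicing regulator that sets epithelial splice forms, and Rab25 is a small GTPase of epithelial membrane recycling.

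Levels are FPKM, fragments per kilobase of transcript scaled to each library's mapped fragments, so they can be compared between genes. Differences are given on the log2(FPKM + 1) scale, as KO 2i minus WT 2i and as WT 2i minus WT FBS, each with its standard error (SE), and errors of levels are SD over the 4 libraries of a group; a gene was called changed at an adjusted p under 0.05 over 12329 tested genes. Both comparisons share the WT 2i libraries. FPKM summed to 347772 to 358340 per library; the number of reads behind them is unknown. Tfcp2l1 had 78.9 ± 5.92 FPKM in KO 2i, 132 ± 13.8 FPKM in WT 2i and 31.3 ± 4.63 FPKM in WT FBS libraries (SD, n = 4 each); it was lower in KO 2i (log2 difference -0.73, adjusted p = 0.000119), and since the deleted part of the gene is not given, this level checks the labels only in part. The 8 pluripotency markers summed to 3580 to 3770 FPKM in KO 2i, 3850 to 4590 FPKM in WT 2i and 3070 to 4080 FPKM in WT FBS libraries; 5 of the 8 fell and 0 rose in KO 2i. Fibroblast markers moved with the groups: 20 of them summed to 544 to 907 FPKM in KO 2i, 310 to 466 FPKM in WT 2i and 186 to 241 FPKM in WT FBS libraries, with no overlap between any pair of groups, and none had a mean of 0 in any group. Of the 19 tested, 17 rose and 0 fell in KO 2i relative to WT 2i, and 14 were higher and 5 lower in WT 2i than in WT FBS. In bulk RNA, a change in the number of cells that express a gene and a change in its RNA per cell cannot be told apart.

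The starts of these genes are shown with the short letter patterns, of factors named in this report, that were searched in them. RefSeq windows of 300 bases, from 250 before to 50 after a start (build GRCm38.p6), were matched for 7 of the 10 genes; Cdh1, Esrp1 and St14 had none. Capitals mark matches on either strand to AACNGGTT, a pattern of grainyhead-like factors, and to CACCTG, the E-box that Snail and Zeb repressors bind. A pattern known for Tfcp2l1, CCAG followed after 6 free bases by CCAG, was searched as well on both strands and had no match in 8 windows (Cldn7 has a pair of windows, of which the one with matches is printed).
Spint1, chr2:119237110-119237409, plus strand: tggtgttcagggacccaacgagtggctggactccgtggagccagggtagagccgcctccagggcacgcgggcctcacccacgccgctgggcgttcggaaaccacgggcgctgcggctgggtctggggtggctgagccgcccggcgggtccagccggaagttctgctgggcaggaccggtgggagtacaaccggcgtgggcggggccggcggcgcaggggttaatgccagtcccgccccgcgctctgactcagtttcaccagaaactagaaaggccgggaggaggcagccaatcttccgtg
Jup, chr11:100397741-100398040, minus strand: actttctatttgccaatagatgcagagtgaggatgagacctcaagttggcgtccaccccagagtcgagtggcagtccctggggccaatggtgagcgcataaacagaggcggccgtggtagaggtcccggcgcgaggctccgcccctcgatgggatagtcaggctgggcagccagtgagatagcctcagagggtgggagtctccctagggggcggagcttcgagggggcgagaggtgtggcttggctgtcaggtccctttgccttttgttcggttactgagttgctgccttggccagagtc
Cldn4, chr5:134946885-134947184, minus strand: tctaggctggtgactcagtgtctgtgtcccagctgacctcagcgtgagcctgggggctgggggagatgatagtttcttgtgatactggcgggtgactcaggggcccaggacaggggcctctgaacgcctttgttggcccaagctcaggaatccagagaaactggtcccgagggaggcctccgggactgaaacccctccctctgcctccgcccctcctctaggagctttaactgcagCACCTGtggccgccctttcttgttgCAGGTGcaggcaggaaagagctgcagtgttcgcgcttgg
Cldn6, chr17:23679115-23679414, plus strand: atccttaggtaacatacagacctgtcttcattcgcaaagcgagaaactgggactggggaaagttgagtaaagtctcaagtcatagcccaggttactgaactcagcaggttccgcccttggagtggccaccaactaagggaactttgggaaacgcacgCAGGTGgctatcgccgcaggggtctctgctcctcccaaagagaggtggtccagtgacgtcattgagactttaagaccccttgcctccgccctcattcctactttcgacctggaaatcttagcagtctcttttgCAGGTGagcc
Cldn7, chr11:69965171-69965470, plus strand: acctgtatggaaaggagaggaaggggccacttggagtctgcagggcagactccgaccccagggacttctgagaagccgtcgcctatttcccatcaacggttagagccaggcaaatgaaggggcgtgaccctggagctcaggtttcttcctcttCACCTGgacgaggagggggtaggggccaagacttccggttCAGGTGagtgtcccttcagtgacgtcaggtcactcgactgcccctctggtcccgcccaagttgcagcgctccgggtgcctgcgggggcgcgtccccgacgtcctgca
Epcam, chr17:87635729-87636028, plus strand: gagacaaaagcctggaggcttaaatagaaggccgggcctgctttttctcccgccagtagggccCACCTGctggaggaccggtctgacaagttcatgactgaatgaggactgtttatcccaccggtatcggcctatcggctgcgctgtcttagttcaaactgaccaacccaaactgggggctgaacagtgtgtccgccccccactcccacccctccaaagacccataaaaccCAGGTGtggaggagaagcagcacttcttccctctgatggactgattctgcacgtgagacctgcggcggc
Rab25, chr3:88548230-88548529, minus strand: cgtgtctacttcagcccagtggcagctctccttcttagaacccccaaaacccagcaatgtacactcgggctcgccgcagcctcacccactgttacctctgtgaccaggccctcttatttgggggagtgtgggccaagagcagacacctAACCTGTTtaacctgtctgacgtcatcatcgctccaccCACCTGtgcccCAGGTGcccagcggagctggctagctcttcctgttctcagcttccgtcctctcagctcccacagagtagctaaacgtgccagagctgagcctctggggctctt

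In these letters the E-box stood in 5 of 8 windows, those of Rab25, Cldn4, Cldn6, Cldn7 and Epcam, with 2 matches in each, while 20.2% of 32851 RefSeq windows held at least 1. No E-box was in the windows of Spint1 and Jup. The grainyhead-type pattern was found in the Rab25 window, at bases 149 to 156, and in 2.09% of all windows. The Tfcp2l1-type pattern was in 3.44% of all windows. A looser CP2 pattern, CNNG followed after 6 free bases by CNNG, was in 3 of 8 windows (Spint1, Cldn4 and Cldn7) and in 70.2% of all windows. The Spint1 window was 69.7% G and C with 28 CpG pairs, against a median of 52.7% and 7 CpG pairs over all windows. A match is a description of the letters and does not show binding.

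In KO 2i relative to WT 2i cells, 6 of the 10 genes fell (Spint1, St14, Cldn4, Jup, Cdh1 and Cldn7), 3 rose (Cldn6, Esrp1 and Epcam) and Rab25 did not pass the test. Over all tested genes 45.3% were called in this comparison, 24.0% higher and 21.4% lower. Libraries of the genotypes did not overlap for the 9 called genes (for Cldn7 only with its RefSeq entries summed), and for 44.1% of all genes (23.7% higher, 20.4% lower). The median difference of the 10 genes was -0.71, beside 0.01 over all tested genes. A call with a difference of at least 1 in size was made for 2.90% of all genes, and for 5 of the 10 (Spint1, St14, Cldn4, Cldn6 and Jup). In WT 2i relative to WT FBS cells, 6 of the 10 were lower (Esrp1, Cldn6, Rab25, Cldn7, Epcam and Cldn4), 2 were higher (Spint1 and St14) and 2 did not pass (Cdh1 and Jup). There, 72.4% of all genes were called, 37.1% higher and 35.3% lower. Libraries of the media did not overlap for the 8 called members, and for 62.5% of all genes (32.0% higher, 30.5% lower). The median of the 10 was -1.48, beside 0.01 over all genes. Esrp1 and Rab25 passed the filter of 1 FPKM in 4 libraries only through the WT FBS libraries, where they are high, so they had to differ between the media. The other 8 members gave 4 lower and 2 higher calls there, and 6 lower and 2 higher calls in KO 2i. A further fit, chosen after the data had been seen, took the mean log2 level of the fibroblast markers as a covariate. Summed levels of these markers did not overlap between groups, so the covariate largely follows the group. SEs of this fit could be larger (0.39 beside 0.20 for Cldn7 in KO 2i), and what a lost call came from was not tested. The calls this fit ended are given with each group of genes.

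**Figure D1:**
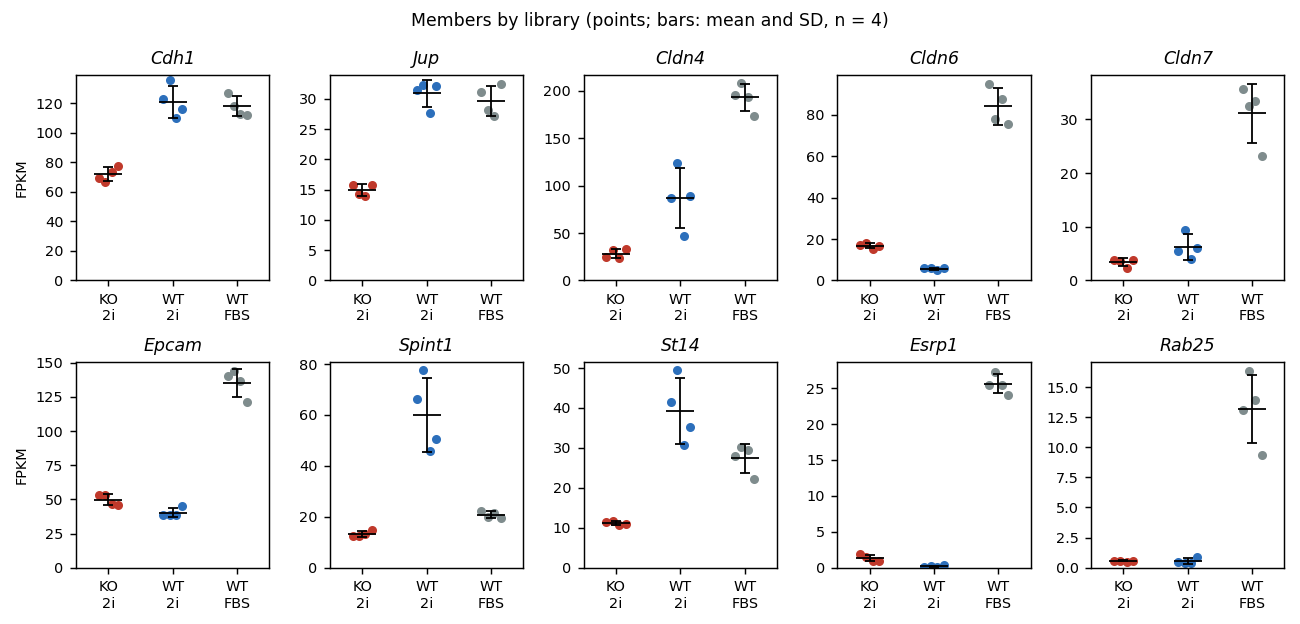
FPKM of the 10 genes in each library (points) with the mean and SD of each group (bars, n = 4), for Tfcp2l1 knockout in 2i, wild type in 2i and wild type in FBS. Each panel has its own axis from 0; all KO 2i points lie below all WT FBS points in each of the 10 panels.

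**Figure D2:**
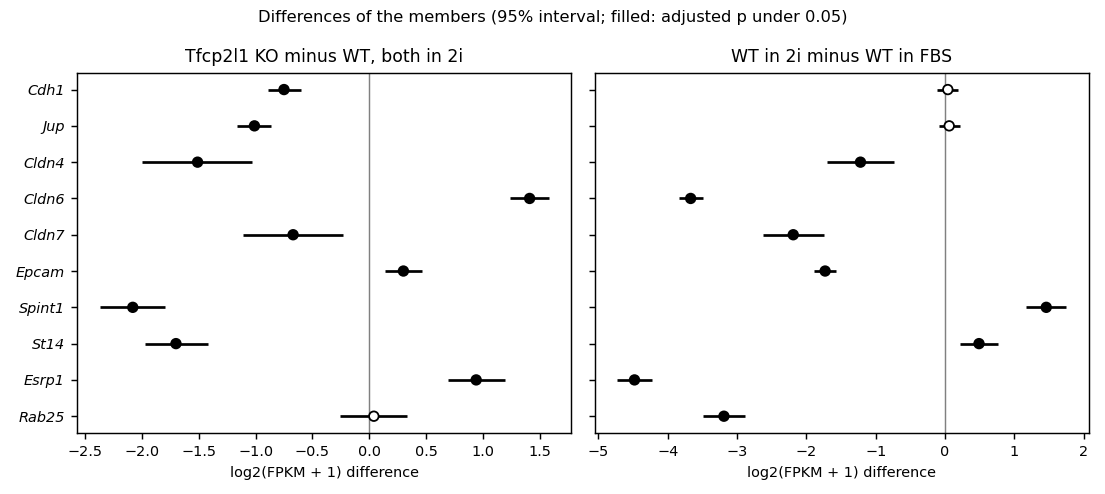
Differences on the log2(FPKM + 1) scale with 95% intervals for KO 2i minus WT 2i (left) and WT 2i minus WT FBS (right); filled points have an adjusted p under 0.05. Spint1 at -2.08 was the lowest of the 10 on the left and Esrp1 at -4.48 the lowest on the right.

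Among the adherens junction genes, Cdh1 (NM_009864, chr8:109127268-109194146, mm9) had 69.2, 66.9, 73.4 and 77.6 FPKM in the KO 2i libraries, 123, 136, 110 and 116 FPKM in the WT 2i libraries and 127, 118, 113 and 112 FPKM in the WT FBS libraries. All 4 KO 2i libraries were below the other 8, and the wild-type groups overlapped. The KO 2i mean of 71.8 ± 4.71 FPKM was 59.2% of the WT 2i mean of 121 ± 11 FPKM (SD, n = 4 each). The difference of KO 2i from WT 2i was -0.75 (SE 0.07, adjusted p = 4.08e-06), and that of WT 2i from WT FBS was 0.04 with a 95% interval from -0.11 to 0.19 (adjusted p = 0.601). With 71.8 FPKM Cdh1 still ranked above 92.6% of tested genes in KO 2i cells, against 96.1% in WT 2i cells.

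Plakoglobin, Jup (NM_010593, chr11:100230170-100259104, mm9), followed the same order of groups. It had 15.7, 14.2, 13.9 and 15.8 FPKM in KO 2i libraries, 31.5, 32.3, 27.7 and 32.1 FPKM in WT 2i libraries and 31.2, 28.1, 27.2 and 32.4 FPKM in WT FBS libraries. The KO 2i libraries stood apart below the wild-type ones, which overlapped between media. Jup fell to 48.1% of WT 2i (difference -1.01, SE 0.07, adjusted p = 4.55e-07), and WT 2i differed from WT FBS by 0.06 (95% interval from -0.09 to 0.21, adjusted p = 0.48). Its relative β-catenin (Ctnnb1), the catenin that also carries Wnt signals, had 180 ± 3.13 FPKM in KO 2i, 174 ± 9.3 FPKM in WT 2i and 217 ± 2.36 FPKM in WT FBS cells, and was not called in KO 2i (0.04, adjusted p = 0.373). The ratio of Jup to Ctnnb1 was 0.0768 to 0.0896 in KO 2i, 0.149 to 0.196 in WT 2i and 0.125 to 0.148 in WT FBS libraries, so that KO 2i libraries were lowest with no overlap.

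Of the 16 other adherens junction genes listed, 13 were tested; 3 rose, 2 fell and 8 did not pass in KO 2i, with a median difference of -0.01. Ctnna1, α-catenin, fell (123 ± 2.41 FPKM in KO 2i, 162 ± 5.76 FPKM in WT 2i; -0.40, adjusted p = 1.97e-05), as did Nectin1, a nectin of cell adhesion (-0.29, adjusted p = 0.00504). P-cadherin, Cdh3, rose (5.59 ± 0.701 FPKM in KO 2i, 2.88 ± 1.08 FPKM in WT 2i; 0.80, adjusted p = 0.00161), and so did N-cadherin, Cdh2, at low levels (1.24 ± 0.195 FPKM in KO 2i, 0.651 ± 0.293 FPKM in WT 2i; 0.45, adjusted p = 0.0298). Ctnnd1, p120 catenin, which stabilises cadherins, rose by a small amount (0.16, adjusted p = 0.0157). With the fibroblast covariate 0 of the 13 rose and Ctnna1 alone fell; Cdh3 was at 0.30 (adjusted p = 0.47), Ctnnd1 at 0.04 (adjusted p = 0.805) and Nectin1 at -0.39 (adjusted p = 0.0617). Cdh2 transcript amounted to 0.015 to 0.0191 of the Cdh1 level in KO 2i, 0.00276 to 0.00824 in WT 2i and 0.011 to 0.0228 in WT FBS libraries. KO 2i and WT 2i libraries did not overlap in this ratio, and KO 2i and WT FBS libraries did. In WT 2i relative to WT FBS cells 2 of the 13 were higher and 7 lower, Cdh3 by -2.52 (adjusted p = 2.67e-08), Afdn, the nectin-binding afadin, by -0.66 (adjusted p = 5.69e-06), Ctnnbip1, an inhibitor of β-catenin, by -0.42 (adjusted p = 2.42e-06) and Ctnnb1 by -0.31 (adjusted p = 1.05e-05). Ctnna1 was not called there (0.04, adjusted p = 0.374).

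The 3 claudins differed from one another. Cldn4 (NM_009903, chr5:135420993-135422804, mm9), a claudin that tightens the paracellular barrier in many epithelia, was the highest claudin in every library. It had 24.7, 31.9, 23.4 and 33.3 FPKM in KO 2i, 86.5, 124, 46.9 and 89 FPKM in WT 2i and 196, 208, 194 and 174 FPKM in WT FBS libraries. The 3 groups did not overlap, and WT 2i replicate 3 was low within its group. Cldn4 fell to 32.7% of WT 2i in KO 2i (-1.51, SE 0.22, adjusted p = 0.000184), and WT 2i was below WT FBS (-1.22, SE 0.22, adjusted p = 0.000271).

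Cldn6 (NM_018777, chr17:23816332-23819414, mm9), a claudin of embryonic epithelia, went the other way. It had 17.3, 17.9, 15.2 and 16.7 FPKM in KO 2i, 5.83, 6.08, 4.97 and 5.89 FPKM in WT 2i and 95, 78.1, 87.5 and 75.7 FPKM in WT FBS libraries. Again no groups overlapped, here with WT 2i lowest and KO 2i between the wild-type groups. The KO 2i mean of 16.8 ± 1.14 FPKM was 2.95-fold the WT 2i mean of 5.69 ± 0.495 FPKM (1.41, SE 0.08, adjusted p = 8.62e-08), and WT 2i was below WT FBS by 3.67 on the same scale, at 84.1 ± 8.87 FPKM in WT FBS (-3.67, SE 0.08, adjusted p = 6.59e-12). In the deposited loci Cldn9 starts 136 bases after Cldn6 ends. Cldn9 had 3.02 ± 0.438 FPKM in KO 2i, 1.73 ± 0.745 FPKM in WT 2i and 2.11 ± 0.316 FPKM in WT FBS cells; it rose in KO 2i (0.60, adjusted p = 0.0121) and was not called between the media (-0.23, adjusted p = 0.245).

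Cldn7 (NM_016887 and NM_001193619, chr11:69778281-69781388, mm9) is the claudin that Epcam binds. It had 3.73, 3.69, 2.39 and 3.84 FPKM in KO 2i, 5.51, 9.46, 3.92 and 6 FPKM in WT 2i and 35.6, 32.4, 33.5 and 23.1 FPKM in WT FBS libraries. KO 2i lay just below WT 2i, with 3.84 FPKM in the highest KO 2i library against 3.92 FPKM in the lowest WT 2i library, and both lay well below WT FBS. This gap rests on the minor entry: NM_016887 alone had 2.39 to 3.84 FPKM in KO 2i and 3.32 to 8.98 FPKM in WT 2i libraries, which overlap. NM_001193619 had 0.483 FPKM in WT 2i replicate 2, 0.592 FPKM in WT 2i replicate 3, 0.605 FPKM in WT FBS replicate 4 and under 0.001 FPKM in the other 9 libraries. The fall in KO 2i (-0.67, SE 0.20, adjusted p = 0.0175) was lost without KO 2i replicate 3, the lowest (-0.55, adjusted p = 0.0559), and was -0.61 (adjusted p = 0.0396) by the highest entry alone. Between media the difference was -2.19 (SE 0.20, adjusted p = 7.47e-07).

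All claudin transcripts together summed to 67.7 ± 5.89 FPKM in KO 2i, 117 ± 34.9 FPKM in WT 2i and 334 ± 25.6 FPKM in WT FBS cells (SD, n = 4 each). The ranges were 60.4 to 73.4 FPKM in KO 2i, 73.5 to 159 FPKM in WT 2i and 296 to 353 FPKM in WT FBS libraries, so that KO 2i and WT 2i nearly met. Cldn4 made up 41.6% ± 4.18 of this sum in KO 2i, 72.9% ± 6.29 in WT 2i and 57.9% ± 2.17 in WT FBS cells. Cldn6 made up 24.8% ± 1.24 in KO 2i and 5.14% ± 1.21 in WT 2i cells, and 25.2% ± 1.82 in WT FBS cells. The Cldn6 shares of KO 2i (23.4% to 26.3%) thus lay within the range of WT FBS libraries (22.6% to 26.9%), while the summed level was far lower in KO 2i. Of 18 other claudins listed 5 were tested: Cldn9 rose and Cldn19 fell in KO 2i (0.534 ± 0.143 FPKM against 1.74 ± 0.452 FPKM in WT 2i; -0.83, adjusted p = 0.000129). Cldn12 had 8.41 ± 1.08 FPKM in KO 2i and 7.16 ± 0.417 FPKM in WT 2i (0.20, adjusted p = 0.0626). Cldn3, 39279 bases from Cldn4, had 4.53 ± 0.0676 FPKM in KO 2i and 4.76 ± 0.938 FPKM in WT 2i cells (-0.04, adjusted p = 0.747), and was lower in WT 2i than in WT FBS (-1.32, adjusted p = 1.22e-07). Between the media Cldn19 was higher in WT 2i (1.30, adjusted p = 4.93e-07) and Cldn5 lower (-0.30, adjusted p = 0.0366), a call that was lost under 6 alternatives. Cldn19 passed the filter only through the WT 2i libraries, where it is high, so it had to differ in both comparisons. Cldn5 would not have passed it without the WT FBS libraries, where its mean is highest, so its lower call was favoured in advance.

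**Figure D3:**
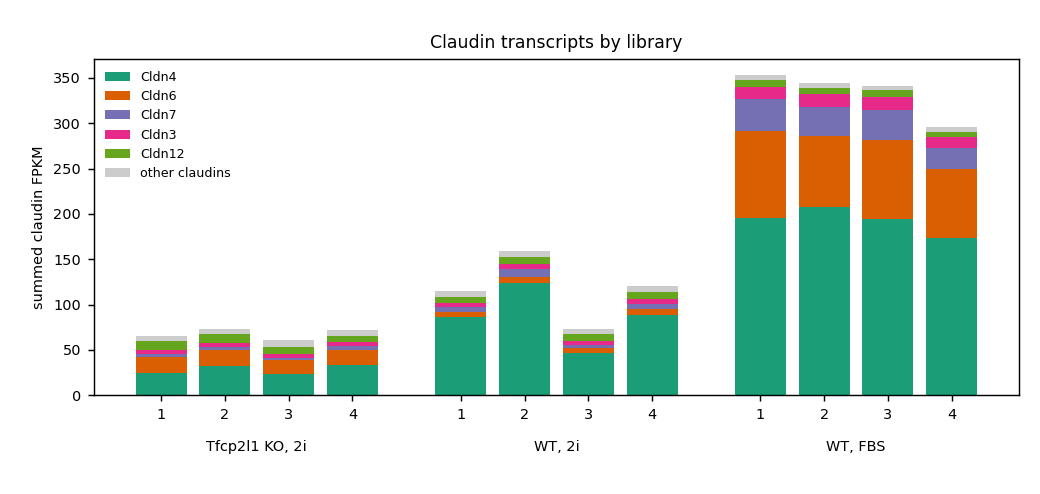
Claudin FPKM stacked by gene in each library of Tfcp2l1 knockout in 2i, wild type in 2i and wild type in FBS (numbers under the bars are replicates). Cldn4 is the largest block in every library, and the Cldn6 block is small in WT 2i libraries (3.83% to 6.76% of the sum).

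The tight junction list beyond claudins had 21 tested genes, of which 4 rose and 5 fell in KO 2i (median 0.07). Ildr1, a protein of contacts between 3 cells, fell (5.42 ± 0.635 FPKM in KO 2i, 17.2 ± 1.55 FPKM in WT 2i; -1.50, adjusted p = 2.18e-07), and occludin, Ocln, fell (2.07 ± 0.168 FPKM in KO 2i, 3.93 ± 0.211 FPKM in WT 2i; -0.69, adjusted p = 0.000117). Cgnl1, paracingulin, rose (3.44 ± 0.449 FPKM in KO 2i, 0.901 ± 0.282 FPKM in WT 2i; 1.23, adjusted p = 3.34e-06), as did the scaffold Tjp1, ZO-1 (22.5 ± 0.304 FPKM in KO 2i, 17.4 ± 1.22 FPKM in WT 2i; 0.35, adjusted p = 0.000354). With the fibroblast covariate 1 rose and 4 fell, and Tjp1 was not called (0.24, adjusted p = 0.135). Between media 7 were higher and 11 lower in WT 2i (median -0.34): Jam2, a junctional adhesion molecule, was higher (58.4 ± 3.97 FPKM in WT 2i, 8.74 ± 1.39 FPKM in WT FBS; 2.62, adjusted p = 4.94e-10), and Cgnl1 (-2.67, adjusted p = 5.27e-10), cingulin, Cgn (-1.89, adjusted p = 1.45e-09) and the polarity scaffold Patj (-1.39, adjusted p = 1.59e-08) were lower. Magi1 had 7.68 ± 0.405 FPKM in WT 2i and 7.72 ± 1.32 FPKM in WT FBS (adjusted p = 0.966). Marveld3, among the 11 lower, passed the filter only through the WT FBS libraries, so it had to be lower in WT 2i.

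Desmosome genes, which share plakoglobin with adherens junctions, had 8 tested members of 11; 1 rose and 3 fell in KO 2i (median -0.14). Dsg2, a desmosomal cadherin, fell (12.9 ± 1.16 FPKM in KO 2i, 22.8 ± 2.45 FPKM in WT 2i; -0.78, adjusted p = 2.24e-05), and so did desmoplakin, Dsp (-0.49, adjusted p = 0.00108), and Dsc2 (-0.38, adjusted p = 0.00113). Perp rose (0.61, adjusted p = 0.00376), and Pkp2, plakophilin, had 5.26 ± 1.22 FPKM in KO 2i and 4.16 ± 0.668 FPKM in WT 2i (0.27, adjusted p = 0.12). The fibroblast covariate ended the calls of Perp (0.58, adjusted p = 0.171) and Dsc2 (-0.33, adjusted p = 0.128). In WT 2i relative to WT FBS 7 of the 8 were lower (median -0.70), among them Pkp2 (-2.08, adjusted p = 2.78e-08), Perp (-1.66, adjusted p = 2.94e-07) and Dsp (-1.08, adjusted p = 3.29e-07), and Dsg2 was higher (1.57, adjusted p = 8.23e-09). Dsc2 and Ppl, among the 7 lower, passed the filter only through the WT FBS libraries, so they had to be lower in WT 2i.

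Epcam (NM_008532, chr17:88035319-88050467, mm9) had 53.1, 53.3, 46.5 and 46.1 FPKM in KO 2i, 38.4, 38.6, 38.8 and 45.1 FPKM in WT 2i and 140, 144, 137 and 121 FPKM in WT FBS libraries. All KO 2i libraries exceeded all WT 2i libraries, with 46.1 FPKM in the lowest KO 2i library against 45.1 FPKM in the highest WT 2i library, and both were far below WT FBS. The KO 2i mean was 1.24-fold the WT 2i mean (0.30, SE 0.07, adjusted p = 0.00521), and WT 2i was lower than WT FBS (-1.73, SE 0.07, adjusted p = 7.38e-10). Epcam and its partner Cldn7 were thus called in opposite directions in KO 2i and in the same direction between the media. With the fibroblast covariate the KO 2i calls of both were lost (Epcam 0.32, adjusted p = 0.156; Cldn7 -0.53, adjusted p = 0.402).

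The inhibitor and its protease both fell in KO 2i and both were higher in WT 2i than in WT FBS. Spint1 (NM_016907, chr2:119063096-119075249, mm9) had 12.3, 12.3, 13.2 and 14.8 FPKM in KO 2i, 66.4, 77.6, 45.8 and 50.5 FPKM in WT 2i and 22.3, 19.9, 21.4 and 19.5 FPKM in WT FBS libraries. The groups did not overlap, with WT 2i highest and KO 2i lowest. Spint1 fell to 21.8% of WT 2i (13.1 ± 1.16 FPKM in KO 2i, 60.1 ± 14.6 FPKM in WT 2i; -2.08, SE 0.13, adjusted p = 2.49e-07), and WT 2i exceeded WT FBS (1.46, SE 0.13, adjusted p = 6.14e-07).

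St14 (NM_011176, chr9:30896175-30939384, mm9) had 11.5, 11.8, 10.7 and 10.9 FPKM in KO 2i, 41.4, 49.6, 30.6 and 35.2 FPKM in WT 2i and 28, 30.2, 29.4 and 22.1 FPKM in WT FBS libraries. KO 2i libraries were again lowest, and the lowest WT 2i library, replicate 3, was just above the highest WT FBS library. St14 fell to 28.6% of WT 2i (11.2 ± 0.518 FPKM in KO 2i, 39.2 ± 8.23 FPKM in WT 2i; -1.70, SE 0.13, adjusted p = 1.02e-06). WT 2i exceeded WT FBS by less (0.49, SE 0.13, adjusted p = 0.00417); this value was 0.75 with that covariate.

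The ratio of Spint1 to St14 was 1.04 to 1.35 in KO 2i, 1.44 to 1.6 in WT 2i and 0.659 to 0.883 in WT FBS libraries, with no overlap between groups. The inhibitor transcript was thus above the protease transcript in every 2i library of both genotypes and below it in every WT FBS library. Spint2, which encodes the related inhibitor HAI-2, had 66 ± 7.38 FPKM in KO 2i, 72 ± 6.7 FPKM in WT 2i and 106 ± 9.5 FPKM in WT FBS cells, and was not called in KO 2i (-0.13, adjusted p = 0.28). It was 4.27 to 5.96 times the Spint1 level in KO 2i, 1 to 1.48 times in WT 2i and 4.54 to 5.77 times in WT FBS libraries. KO 2i and WT FBS libraries overlapped in this ratio, and WT 2i libraries lay below both.

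**Figure D4:**
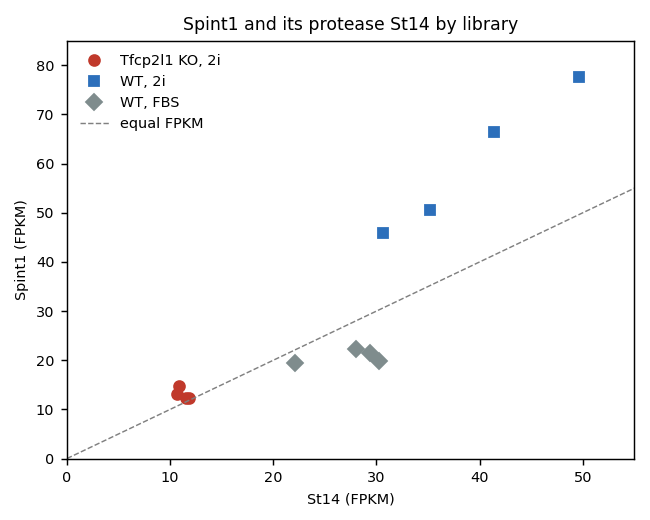
Spint1 FPKM against St14 FPKM, 1 point per library, for Tfcp2l1 knockout in 2i, wild type in 2i and wild type in FBS; the dashed line marks equal levels. The 4 KO 2i libraries lie at the lower left with St14 between 10.7 and 11.8 FPKM, and WT FBS libraries lie under the line.

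Among 19 other surface serine proteases, inhibitors and targets listed, 9 were tested; 4 rose and 2 fell in KO 2i (median 0.11). Prostasin, Prss8, a protease of the matriptase pathway, fell (1.46 ± 0.0578 FPKM in KO 2i, 3.44 ± 0.822 FPKM in WT 2i; -0.83, adjusted p = 8.33e-05), and Mst1, the ligand of the Ron receptor, fell (1.26 ± 0.0745 FPKM in KO 2i, 5.2 ± 1.68 FPKM in WT 2i; -1.41, adjusted p = 3.03e-05). Plau, urokinase, rose (1.13 ± 0.274 FPKM in KO 2i, 0.408 ± 0.175 FPKM in WT 2i; 0.60, adjusted p = 0.000765), as did hepsin, Hpn (3.7 ± 0.826 FPKM in KO 2i, 1.86 ± 0.614 FPKM in WT 2i; 0.72, adjusted p = 0.00301). Under that covariate 1 rose and 3 fell, and Plau was at 0.17 (adjusted p = 0.449). Between media 8 of the 9 were lower in WT 2i (median -0.91), among them the urokinase receptor Plaur (1.7 ± 0.561 FPKM in WT 2i, 19.5 ± 1.91 FPKM in WT FBS; -2.94, adjusted p = 1.53e-09), Hpn (-2.11, adjusted p = 1.19e-07), Prss8 (-1.79, adjusted p = 1.93e-08) and Spint2 (-0.55, adjusted p = 0.000128). Mst1 alone of the 9 was higher in WT 2i (2.20, adjusted p = 9.85e-08). Spint1 and St14 thus stood with Mst1, and not with Prss8 and Spint2, in their direction between the media. Met, among the 8 lower, passed the filter only through the WT FBS libraries, so it had to be lower in WT 2i. Plau, also among them, would not have passed without the WT FBS libraries, where it is high, so its lower call was favoured in advance.

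Esrp1 (NM_194055, chr4:11259185-11313930, mm9) was near the bottom of the tested genes in 2i, above 7.73% of them in KO 2i and 0.519% in WT 2i cells, against 75.6% in WT FBS cells. It had 1.9, 1.45, 0.933 and 0.992 FPKM in KO 2i, 0.136, 0.239, 0.0918 and 0.319 FPKM in WT 2i and 25.5, 27.3, 25.5 and 24.1 FPKM in WT FBS libraries. The groups did not overlap, and KO 2i lay between the wild-type groups but near WT 2i. The KO 2i mean of 1.32 ± 0.45 FPKM was 6.71-fold the WT 2i mean of 0.197 ± 0.102 FPKM, and the WT FBS mean of 25.6 ± 1.3 FPKM was 130-fold it. On the log2(FPKM + 1) scale, which understates changes of low genes, the difference was 0.94 for KO 2i (SE 0.12, adjusted p = 4.99e-05) and -4.48 for WT 2i minus WT FBS (SE 0.12, adjusted p = 2.71e-11); with a pseudocount of 0.01 they were 2.77 and -7.10. The lower bound that the authors give for Esrp1 was above 0 in each library, 0.0389 FPKM at the lowest. Beside the 4 WT FBS libraries, 2 KO 2i libraries reached the 1 FPKM of the filter, so Esrp1 was tested through the group where it is high.

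Rab25 (NM_016899, chr3:88345951-88352201, mm9) shared the low level in 2i but not the difference between genotypes. It had 0.592, 0.584, 0.494 and 0.583 FPKM in KO 2i, 0.437, 0.4, 0.426 and 0.888 FPKM in WT 2i and 13.1, 16.3, 13.9 and 9.4 FPKM in WT FBS libraries. KO 2i and WT 2i libraries overlapped and all were far below WT FBS. The difference of KO 2i from WT 2i was 0.04 with a 95% interval from -0.26 to 0.33 (adjusted p = 0.854), and WT 2i was lower than WT FBS (-3.19, SE 0.14, adjusted p = 8.77e-10). At this level the filter was passed through the 4 WT FBS libraries alone.

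Esrp2, the paralog of Esrp1, moved the other way in KO 2i: it fell (1.06 ± 0.0293 FPKM in KO 2i, 1.58 ± 0.111 FPKM in WT 2i; -0.32, adjusted p = 0.00131) and was lower in WT 2i than in WT FBS (4.97 ± 0.382 FPKM; -1.21, adjusted p = 4e-09). Of 10 other splicing regulators tested, Esrp2 included, 4 rose and 2 fell in KO 2i (median 0.07). Ptbp1, a repressor of exons, rose (0.16, adjusted p = 0.00323), Celf1 rose (0.17, adjusted p = 0.0197) and Qk, quaking, fell (-0.23, adjusted p = 0.000665). Mbnl2 did not pass (0.18, adjusted p = 0.265). With the fibroblast covariate 0 of the 10 were called: Esrp2 was at -0.27 (adjusted p = 0.144), Ptbp1 at 0.14 (adjusted p = 0.211), Qk at -0.22 (adjusted p = 0.0871) and Celf1 at 0.05 (adjusted p = 0.759). The call of Celf1 was also lost without KO 2i replicate 3 (adjusted p = 0.0516), WT 2i replicate 1 (adjusted p = 0.0588) or WT 2i replicate 2 (adjusted p = 0.0568). Between media 3 were higher and 6 lower in WT 2i, Rbm47 by -1.38 (adjusted p = 5.13e-07), Ptbp1 by -0.38 (adjusted p = 1.12e-06) and Qk by 0.46 (adjusted p = 5.2e-07); Rbfox2 was not called (-0.06, adjusted p = 0.289).

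Around Rab25, 13 of 14 genes of Rab11 recycling were tested; 1 rose and 6 fell in KO 2i (median -0.13). Rab11a, its close relative, fell (20.2 ± 0.903 FPKM in KO 2i, 27.4 ± 1.38 FPKM in WT 2i; -0.42, adjusted p = 0.000138), as did the effector Rab11fip5 (15.3 ± 1.46 FPKM in KO 2i, 25.4 ± 4.17 FPKM in WT 2i; -0.69, adjusted p = 0.000457), Rab17 (-0.47, adjusted p = 0.00198) and Rab8a (-0.20, adjusted p = 0.00882). Rab10 was not called (0.10, adjusted p = 0.0538). Under the covariate 0 rose and 2 fell, and the calls of Rab17 (-0.37, adjusted p = 0.198) and Rab8a (-0.26, adjusted p = 0.112) were lost. Unlike Rab25, 7 of the 13 were higher and 4 lower in WT 2i than in WT FBS, with Rab11fip5 at 2.36 (adjusted p = 2.66e-09), Rab11fip4 at 0.77 (adjusted p = 1.3e-06), Myo5a, a myosin motor, at -1.33 (adjusted p = 3.41e-07) and the exocyst subunit Exoc6 at -0.68 (adjusted p = 4.85e-07). Rab10 did not pass there either (0.01, adjusted p = 0.846). Rab17, among the 4 lower, would not have passed the filter without the WT FBS libraries, where it is high, so its lower call was favoured in advance.

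KO 2i and WT FBS differ in genotype and medium at once, so they were compared by their libraries only. Every KO 2i library was below every WT FBS library in all 10 genes. Over all tested genes 30.0% lay below in this way and 32.8% above. Esrp1 and Rab25 passed the filter only through the WT FBS libraries, where they are high, so their place below WT FBS was favoured in advance. The KO 2i mean was 4.28% of the WT FBS mean for Rab25, 5.15% for Esrp1, 11% for Cldn7, 14.7% for Cldn4, 20% for Cldn6, 36.7% for Epcam, 40.9% for St14, 50.1% for Jup, 61% for Cdh1 and 63.2% for Spint1. The place of WT 2i in the order of the groups split the 10 genes. WT 2i was highest for Spint1 and St14 and overlapped WT FBS for Cdh1 and Jup. It lay between KO 2i and WT FBS for Cldn4 and Cldn7, and it was lowest for Cldn6, Esrp1 and Epcam. For Rab25 it overlapped KO 2i.

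Genes of related pathways did not share a single direction. Of 12 tested epithelial transcription factors 2 rose and 3 fell in KO 2i (median 0.00). Tfap2c, a factor of trophoblast and germ cells, rose (41.4 ± 1.97 FPKM in KO 2i, 26.8 ± 2.2 FPKM in WT 2i; 0.61, adjusted p = 7.52e-05) and Foxa1 rose at a low level (0.56, adjusted p = 0.0016). Elf3 fell (42.8 ± 6.33 FPKM in KO 2i, 66 ± 9.93 FPKM in WT 2i; -0.61, adjusted p = 0.000847), Klf5 fell (-0.34, adjusted p = 0.00158), and Grhl3, a grainyhead-like factor named here after its values were seen, fell (3.66 ± 0.293 FPKM in KO 2i, 6.43 ± 1.75 FPKM in WT 2i; -0.64, adjusted p = 0.00843). Klf4 did not pass (-0.30, adjusted p = 0.103). Foxa1 would not have passed the filter without the KO 2i libraries, where it is high, so its rise was favoured in advance. In the covariate fit Tfap2c alone rose and Elf3 alone fell; Klf5 was at -0.32 (adjusted p = 0.13) and Foxa1 at 0.45 (adjusted p = 0.176). Grhl2, a grainyhead-like activator of epithelial junction genes, had 2.13 ± 0.133 FPKM in KO 2i, 1.9 ± 0.323 FPKM in WT 2i and 10 ± 1.98 FPKM in WT FBS cells; it was not called in KO 2i (0.12, adjusted p = 0.412) and was lower in WT 2i than in WT FBS (-1.92, adjusted p = 1.14e-08). Between media 5 of the 12 were higher and 7 lower in WT 2i, with Klf4 at 1.49 (adjusted p = 8.58e-07), Klf5 at 0.76 (adjusted p = 6.01e-07) and Tfap2c at -1.24 (adjusted p = 2.71e-08).

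Of 19 other tested genes of the epithelial surface and cytoskeleton 3 rose and 6 fell in KO 2i (median -0.12). The tetraspanin Cd9 fell (240 ± 14.9 FPKM in KO 2i, 553 ± 127 FPKM in WT 2i; -1.17, adjusted p = 5.76e-05), and integrin β4, Itgb4, fell (-0.61, adjusted p = 7.38e-05). Prom1, prominin, rose (2.78 ± 0.465 FPKM in KO 2i, 0.558 ± 0.0567 FPKM in WT 2i; 1.27, adjusted p = 1.33e-05), as did Cd24a (0.74, adjusted p = 0.000194). Llgl2 did not pass (-0.13, adjusted p = 0.08). In the covariate fit 1 rose and 4 fell, and Itgb4 (-0.46, adjusted p = 0.0504) and Cd24a (0.60, adjusted p = 0.0715) were not called. Between media 14 of the 19 were lower and 4 higher in WT 2i (median -0.98). The simple keratins had the largest differences of this list: Krt18 had 7.53 ± 3 FPKM in WT 2i and 127 ± 23.9 FPKM in WT FBS (-3.95, adjusted p = 8.89e-09), Krt8 was at -3.74 (adjusted p = 5.74e-08) and Krt19 at -3.72 (adjusted p = 4.28e-09), and Tmem30b was at -1.29 (adjusted p = 3.22e-08). Ripk4 did not pass (-0.16, adjusted p = 0.0794).

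Genes of mesenchymal transition, the programme that lowers Cdh1 in embryos, had 16 tested members; 10 rose and 2 fell in KO 2i (median 0.52). Snai1, an E-box repressor of Cdh1, rose (10.7 ± 0.867 FPKM in KO 2i, 5.01 ± 1.08 FPKM in WT 2i; 0.98, adjusted p = 2.22e-05), vimentin, Vim, rose (125 ± 23.1 FPKM in KO 2i, 61.1 ± 12.5 FPKM in WT 2i; 1.02, adjusted p = 0.000194), and the protease Mmp14 rose (22.7 ± 4.3 FPKM in KO 2i, 11.8 ± 2.51 FPKM in WT 2i; 0.89, adjusted p = 0.000495). Itga5 fell (-0.88, adjusted p = 6.59e-06), and Sparc did not pass (-0.18, adjusted p = 0.198). Zeb1, an E-box repressor as well, had 6.44 ± 0.413 FPKM in KO 2i, 6.99 ± 0.981 FPKM in WT 2i and 2.29 ± 0.417 FPKM in WT FBS cells. It was not called in KO 2i (-0.10, adjusted p = 0.456) and was higher in WT 2i than in WT FBS (1.28, adjusted p = 1.59e-07). Fibroblasts are known to express many genes of this list, and their markers moved with KO 2i (Col1a1 had 131 ± 27.3 FPKM in KO 2i, 69.5 ± 15.3 FPKM in WT 2i and 25.4 ± 4.18 FPKM in WT FBS cells). With the fibroblast marker level as a covariate Snai1 alone of this list rose and Itga5 alone fell, and Vim (0.28, adjusted p = 0.165) and Mmp14 (0.18, adjusted p = 0.445) were not called. S100a4 is in this list and among the fibroblast markers, so it was in part adjusted for itself. Between media 5 of the 16 were higher and 7 lower in WT 2i, with Sparc at 1.56 (adjusted p = 5.9e-08), S100a4 at -4.47 (adjusted p = 5.45e-10) and Tagln at -2.59 (adjusted p = 4.47e-08); Tgfbi did not pass (0.18, adjusted p = 0.355).

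**Figure D5:**
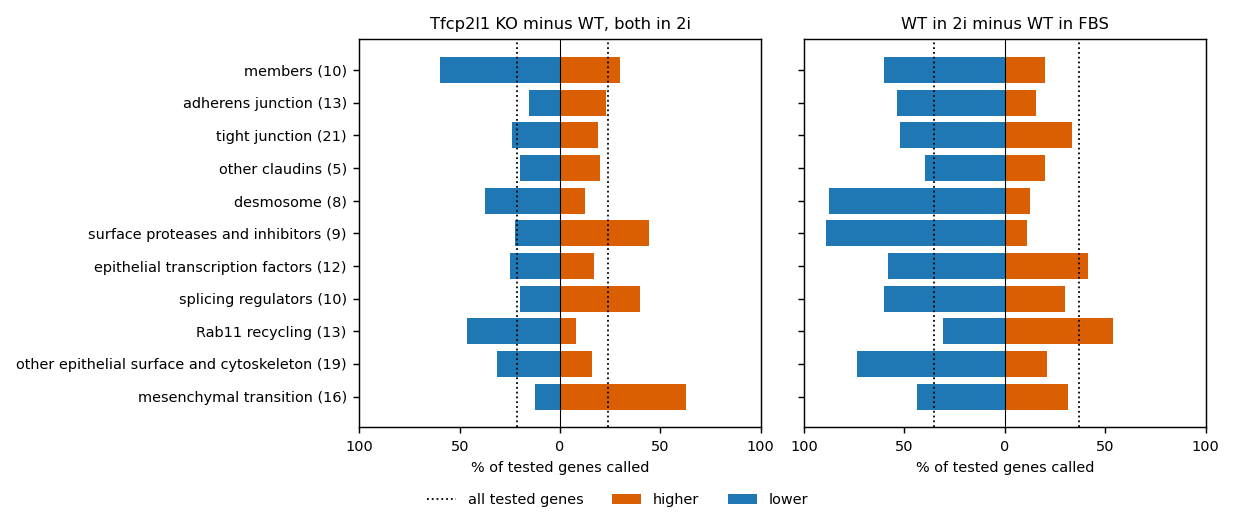
Percent of tested genes of each list called higher (right of 0) or lower (left of 0) in KO 2i minus WT 2i and in WT 2i minus WT FBS; the number tested is in brackets and dotted lines mark the percent over all tested genes. The 10 members exceed the dotted line for lower calls in both panels, at 6 of 10 each. On the right these include Esrp1 and Rab25, which passed the filter only through the WT FBS libraries and had to be lower. Some genes of other lists passed in the same way. The members and lists were chosen with earlier results of these data known.

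In the fit with the fibroblast marker level 7 of the 10 members were called in KO 2i, 2 higher (Cldn6 and Esrp1) and 5 lower (Spint1, St14, Cldn4, Jup and Cdh1). Other cell types' markers were also summed. Trophoblast markers had 70.6 to 76.7 FPKM in KO 2i, 65.8 to 98.3 FPKM in WT 2i and 130 to 143 FPKM in WT FBS libraries; Tpbpa and Prl3d1 had a mean of 0 in KO 2i and WT 2i, and both lay under 1 FPKM in WT FBS. Of its 10 tested markers 4 rose and 4 fell in KO 2i, and 7 were lower in WT 2i than in WT FBS. Plac1 and Hand1, among these 7, passed the filter only through the WT FBS libraries, so they had to be lower in WT 2i. Visceral endoderm markers summed to 1.16 to 1.76 FPKM in KO 2i, 1.21 to 1.89 FPKM in WT 2i and 6.49 to 13.7 FPKM in WT FBS libraries, and 2 of the 10 were tested (1 rose in KO 2i, 2 were lower in WT 2i than in WT FBS). These 2, Amn and Spink1, passed the filter only through the WT FBS libraries, so they had to be lower in WT 2i. Parietal endoderm markers summed to 369 to 515 FPKM in KO 2i, 426 to 536 FPKM in WT 2i and 204 to 251 FPKM in WT FBS libraries; of 7 tested 3 rose and 1 fell in KO 2i, and 1 was higher and 2 lower in WT 2i than in WT FBS. Markers of surface ectoderm and mature epithelium summed to 59.6 to 73.3 FPKM in KO 2i, 38 to 52.7 FPKM in WT 2i and 84.4 to 135 FPKM in WT FBS libraries, mostly from Sfn (61.7 ± 6.34 FPKM in KO 2i, 38.9 ± 4.96 FPKM in WT 2i and 99.5 ± 19.8 FPKM in WT FBS cells), while Krt5, Krt14, Trp63 and Dsg3 stayed under 1 FPKM in each group mean. Of the 2 tested markers of this list, Sfn rose and Grhl3 fell in KO 2i, and both were lower in WT 2i than in WT FBS. The part of other cell types in the differences between WT 2i and WT FBS was not tested.

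Libraries of 1 group differed together in several members. WT 2i replicate 3 was the lowest of its group for 8 of the 10 genes, where it was lowest for 36.9% of all tested genes, and WT 2i replicate 2 was the highest for 7 (30.2% of all genes). WT FBS replicate 4 was the lowest of its group for 9 of the 10 (35.9% of all genes), and KO 2i replicate 3 for 7 (23.3%). Leaving out these libraries in turn ended no call of a member other than that of Cldn7 without KO 2i replicate 3. Over all 26 alternatives the KO 2i difference of Spint1 lay between -2.21 and -1.95 and that of St14 between -1.8 and -1.43.

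Genes whose log2(FPKM + 1) levels were most like those of a member over the 12 libraries are given as a description, since group means shape such likeness and the libraries share their groups. For Spint1 these were Smarcd3 (Pearson r = 0.994), a chromatin remodeller subunit, Vwf (0.991) and Ptges (0.990). Smarcd3 had 0.906 ± 0.17 FPKM in KO 2i, 6.04 ± 1.22 FPKM in WT 2i and 1.88 ± 0.182 FPKM in WT FBS cells. St14 was most like Nek6 (0.987), Smad7 (0.984), an inhibitor of TGF-β and BMP signalling, and Tle3 (0.981); Smad7 had 9.98 ± 0.579 FPKM in KO 2i, 26.4 ± 2.57 FPKM in WT 2i and 21.9 ± 1.72 FPKM in WT FBS cells. For Cdh1 they were Mrpl34 (0.984), Mymx (0.978) and Ppp1r1a (0.972), with Mymx at 5.2 ± 0.86 FPKM in KO 2i, 43.3 ± 4.24 FPKM in WT 2i and 31.4 ± 4.47 FPKM in WT FBS cells. Cldn6 was closest to Insm1 (0.997), Emb (0.996) and Grb7 (0.996); Grb7 had 7.59 ± 0.627 FPKM in KO 2i, 3.22 ± 0.512 FPKM in WT 2i and 21.4 ± 1.96 FPKM in WT FBS cells.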

How the data were processed

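RNA-seq of mouse ESCs gave 12 libraries in 3 groups of 4, taken from the labels. Trizol extraction and a TruSeq kit are named in the labels' protocols. CASAVA 1.8.2, Cufflinks and build mm9 are named in the submitters' processing notes, and no aligner is given in the sources used here. FPKM per RefSeq entry, with a lower and an upper bound, were deposited, so read depth is unknown and no count test was used. Some levels lie above their own upper bound, for a reason not given in the sources used here. Cdh1 in KO 2i replicate 1 had 69.2 FPKM with an upper bound of 68.8 FPKM. Cldn4 in WT FBS replicate 1 had 196 FPKM with an upper bound of 183 FPKM.

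The 30761 entries were named from RefSeq and GENCODE tables (98.8% matched) and summed per symbol; 7 genes with failed estimates were left out. A gene was tested (12329 were, all 10 members among them) if 4 or more libraries reached 1 FPKM, on log2(FPKM + 1) with limma 3.58.1 in R 4.3.3: 1 mean per group over 12 libraries, eBayes with trend, two-sided, Benjamini-Hochberg adjustment over all tested genes. All adjusted p-values are from this model, which was tested on simulated data. Separate cultures are not stated in the labels. The p-values thus measure only the spread between these samples, and that spread may be technical. Python 3.11.15, numpy 2.4.6, pandas 2.3.3 and matplotlib 3.10.9 were used.

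Named besides the members were, per list and comparison, up to 4 called genes with the smallest adjusted p and the highest gene not called; the 3 genes most like Spint1, St14, Cdh1 and Cldn6; and Tfcp2l1. The result of a single gene under this rule is not reported here. The members and lists were chosen with earlier results of these data known. Cdh2, Cldn9 beside Cldn6, Col1a1, Grhl3 and Sfn outside that rule were named after their values were seen. Coordinates are those of the deposited table (mm9, 1-based), and promoter windows are RefSeq's on GRCm38.p6. Alternatives were other pseudocounts, filters, scalings, eBayes settings, the highest entry per symbol, array weights, the 8 libraries of a comparison, the replicate number as a block, each library left out and, added later, the fibroblast marker level as a covariate, 26 settings in all.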

Additional observations from a re-analysis of the deposited data

Results flagged for a closer look

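Within 30 groups of 4 libraries (10 genes in 3 groups), 5 had a library whose gap to its nearest neighbour was too large a share of the group's range by Dixon's 95% critical value; chance flags about 1 in 20 groups. Epcam was high in WT 2i replicate 4, at 45.1 FPKM against 38.4 to 38.8 FPKM in the others. Cldn7 was low in KO 2i replicate 3, at 2.39 FPKM against 3.69 to 3.84 FPKM. Rab25 was low in KO 2i replicate 3, at 0.494 FPKM against 0.583 to 0.592 FPKM. Rab25 was high in WT 2i replicate 4, at 0.888 FPKM against 0.4 to 0.437 FPKM. Jup was low in WT 2i replicate 3, at 27.7 FPKM against 31.5 to 32.3 FPKM.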

How the results depend on the processing

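Over 26 alternative settings the 10 members kept direction and side of the threshold in 254 of 260 values for KO 2i minus WT 2i and in 258 of 260 for WT 2i minus WT FBS. Called values were lost for Cldn7 without KO 2i replicate 3 and for Cldn7 and Epcam with the fibroblast covariate; the cause was not tested. Values that changed sign were not called: Rab25 in KO 2i was -0.12 with quantile normalization, -0.18 with the covariate and -0.01 to 0.14 over left-out libraries, and Cdh1 between media was -0.01 with the covariate and -0.01 to 0.08 over left-out libraries. With the covariate, 1742 of all tested genes were called in KO 2i, 729 higher and 1013 lower, beside 5589 (2954 and 2635); the higher share was 41.8% beside 52.9%. Leaving out 1 library gave 4710 to 5922 calls in KO 2i (2520 to 3065 higher, 2187 to 2857 lower) and 8506 to 8966 between media (4373 to 4663 higher, 4108 to 4338 lower), with 8 to 9 members called in KO 2i (3 higher, 5 to 6 lower) and 8 between media (2 higher, 6 lower).

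Pairing by replicate number was not established: deviations of same-numbered libraries correlated by 0.06 to 0.26 between KO 2i and WT 2i and 0.03 to 0.19 between WT 2i and WT FBS, where 3 of 4 and 2 of 4 libraries correlated best with their own number. The replicate block gave 5567 calls (2925 higher, 2642 lower) and 8899 calls (4582 and 4317), and left 9 and 8 members called. Other scalings moved the median of all genes to at most 0.037 in size. Of the lists' counts 51 of 520 moved by over 1.5 times in KO 2i and 22 of 520 between media. Among the other genes named by the rule 22 values lost a call in KO 2i, 19 of them with the covariate and 3 of Celf1. Between media 6 did, all of Cldn5. Genes named outside the rule are not in these counts, and of them Cdh2 and Grhl3 lost their KO 2i calls with the covariate. Calls were gained 15 times in KO 2i, by Rab10 under 7 settings (0.10 to 0.13), Cldn12 under 4 (0.23 to 0.28), Klf4 under 2 (-0.39 and -0.41) and Pkp2 (0.32) and Llgl2 (-0.16) under 1 each, and 2 times between media, by Ripk4 (-0.21 and -0.22). Uncalled values that changed sign in KO 2i were Ctnnb1 (-0.04 by the highest entry and the covariate), Mbnl2 (-0.12 by the highest entry) and Spint2 (0.07 with the covariate). Between media, by the highest entry, Rbfox2 was 0.25 (adjusted p = 0.00913), Magi1 0.30 and Cldn12 -0.02. Magi1 was 0.01 with pseudocounts of 0.1 and 0.01 and TPM scaling, -0.04 with quantile normalization, -0.07 with array weights, 0.03 with the covariate and -0.08 to 0.09 over left-out libraries. Cldn12 was -0.01 with median-ratio scaling, -0.05 with quantile normalization and array weights, 0.14 with the covariate and -0.05 to 0.02 over left-out libraries. Rab10 was -0.01 to 0.03 over left-out libraries. With no read depth known, counting error of Esrp1 and Rab25 in 2i, both near or under 1 FPKM, can be read only from the deposited bounds. Esrp1 in WT 2i replicate 3, at 0.0918 FPKM, had bounds of 0.0389 and 0.146 FPKM. Rab25 in WT 2i replicate 1, at 0.437 FPKM, had bounds of 0.182 and 0.655 FPKM.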
